A study of Mus musculus with 4 samples.

Results

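The genes described here encode collagens, laminins, matrix metalloproteinases (MMPs), their tissue inhibitors (TIMPs) and 13 further named proteins of the extracellular matrix, the nidogens among them. They were chosen by gene symbol alone in the array's annotation, and 80 of the 12393 genes with a probe set of a single symbol met the rule, with 137 probe sets. Of the 13 further genes, Fbn1 was not analysed here. Where a gene had several such probe sets, the one of highest mean signal stands for it. The arrays hold gastrocnemius RNA of mice aged 6 weeks. There were 2 arrays of non-transgenic littermates, which the labels also call wild-type, and 2 of MCK-PPARb mice, in which PPARbeta was overexpressed specifically in muscle. No other allele or treatment is given in the labels. MCK, from the muscle creatine kinase gene, marks a promoter active in muscle fibres, so the transgene is not directed to the fibroblasts that make most of the collagen. The labels number the arrays as biological replicates, and the design text names 2 mice of each genotype. Non-transgenic mice are called controls from here on and MCK-PPARb mice transgenic.

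The matrix of skeletal muscle has layers. Around each fibre lies a basement membrane, a sheet of laminin and collagen IV networks joined by nidogens, and collagen VI links it to the connective tissue outside. That tissue is built of fibrillar collagens I, III and V, decorated by small leucine-rich proteoglycans and made mainly by fibroblasts, while fibres, endothelial cells and Schwann cells add to basement membranes. MMPs cleave matrix proteins and TIMPs inhibit MMPs. In RNA of whole muscle, fewer cells of a type and less RNA per cell cannot be told apart.

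None of the matrix genes passed the test, and 6 of the 48 tested differed by more than 0.5 on the log2 scale between the groups. Above the filter level of 444 signal units, taken over the mean of all 4 arrays, lay 48 of the 80 members. Of these 48, 0 were called at an adjusted p under 0.05 in limma, against 0.731% of all 6841 genes above the filter level. The smallest adjusted p was 0.348. A single member, Timp1, had an unadjusted p under 0.05, against 10.9% of all genes. The differences on the log2 scale, MCK-PPARb minus non-transgenic throughout, ran from -0.56 to 0.93. Their median was -0.013, beside 0.011 over all genes, and 23 of the 48 lay above 0 and 25 below, where 51.2% of all genes lay above 0. The median absolute difference was 0.19, beside 0.24 over all genes. The groups did not overlap for 13 members, 9 higher and 4 lower in MCK-PPARb muscle. That is 27.1%, where 42.9% of all genes did not overlap, 22.2% higher and 20.8% lower.

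**Figure D1:**
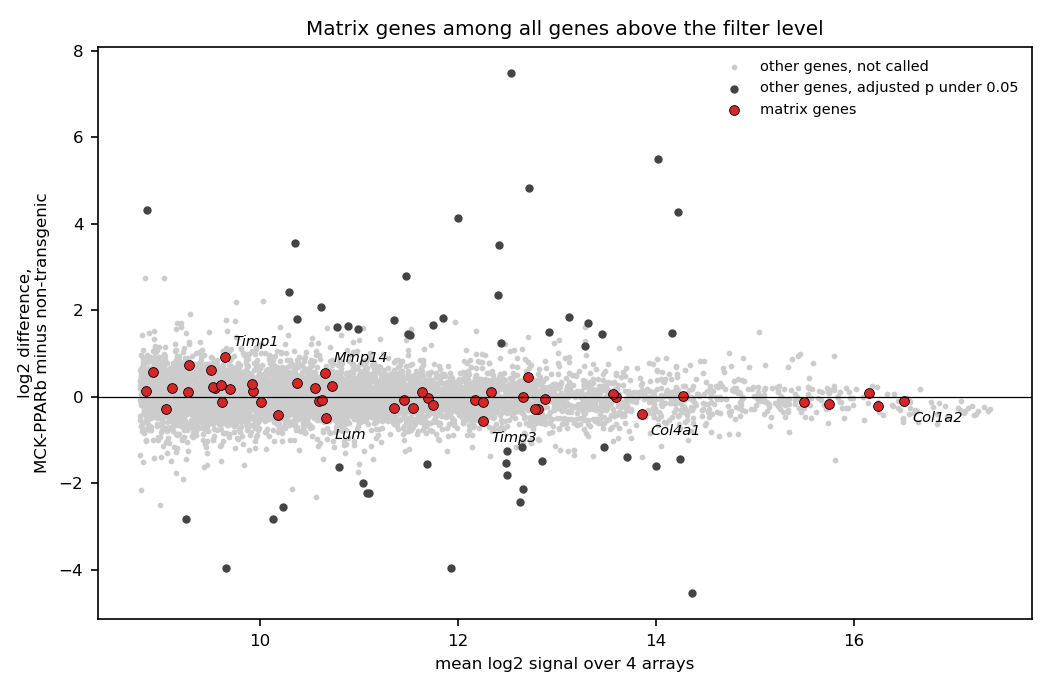
Log2 difference, MCK-PPARb minus non-transgenic, against mean log2 signal over the 4 arrays, for all 6841 genes above the filter level. The 48 matrix genes (red) run from -0.56 to 0.93 over a wide range of signals, and none is among the 50 called genes (dark).

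The size of change that these arrays leave possible was read from the 95% interval of each difference, which comes from the same fit and is not adjusted for the number of genes. For 33 of the 48 members the interval lay wholly between -1 and 1, a change of less than 2-fold in either direction, as it did for 61.7% of all genes. For the other 15, Timp1, Timp3, Lum and Lama5 among them, the interval reached beyond 2-fold on 1 side at least. The replicates of a member differed by a median of 0.23 on the log2 scale between the non-transgenic arrays and 0.25 between the MCK-PPARb arrays. Taken as a deviation from each member's own mean, the median over the 48 came to -0.093 on control array 1, 0.016 on control array 2, 0.096 on transgenic array 1 and -0.10 on transgenic array 2. The highest and the lowest of these values both belong to transgenic arrays.

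**Figure D2:**
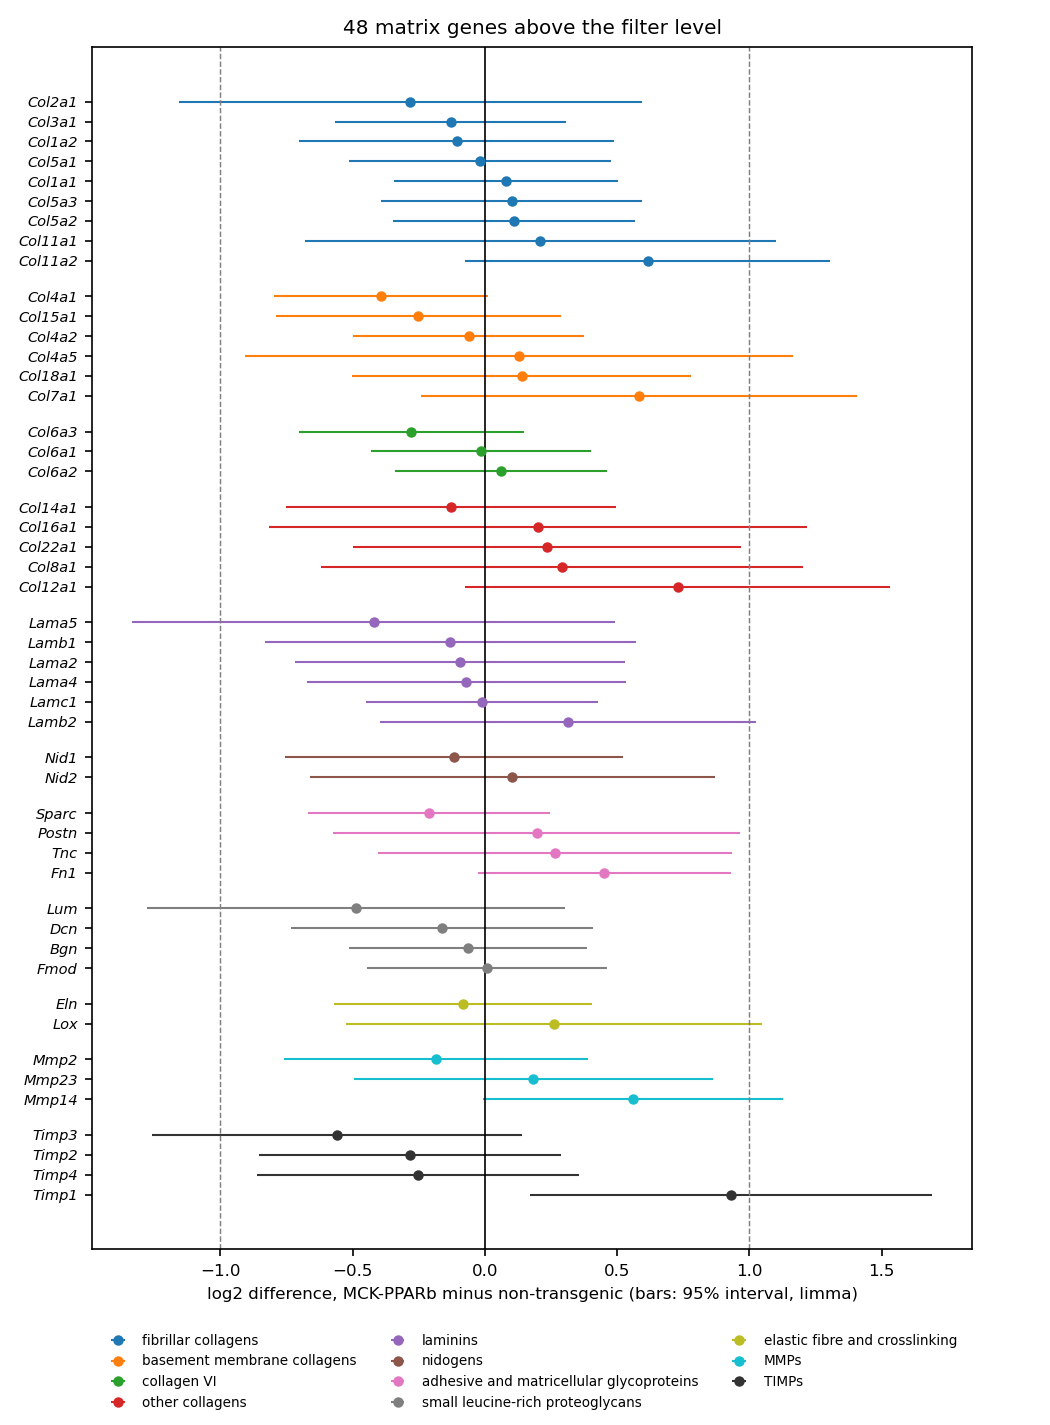
Log2 difference of each of the 48 matrix genes above the filter level, grouped by role, with its 95% interval from limma; dashed lines mark a change of 2-fold. Timp1 at the bottom is the gene whose interval, 0.17 to 1.69, does not include 0.

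The samples matched their labels in 2 respects. Ppard, which encodes PPARbeta, read 2169 and 2825 in control muscle, against 126049 and 98797 in transgenic muscle (log2 5.49 ± 0.22, 45.1-fold, adjusted p = 0.000187 with limma; ± is the standard error here and throughout, and n is 2 in each group). All 10 markers of fast muscle fibres were above the filter level, at 81682 signal units or more. Control array 1 had a heavier bright end, with 4.20% of its signal in its 10 brightest probe sets against 2.36% to 2.78% on the other arrays.

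All 9 fibrillar collagens measured were above the filter level, with differences of -0.28 to 0.62, and none was called. Collagen I, the main collagen of tendon and of the connective tissue around fibres, is a trimer of the products of Col1a1 and Col1a2. Col1a1 read 70979 and 70123 in control muscle, against 75732 and 73388 in transgenic muscle. The replicates of each group lay closer together than the groups, yet the difference was 0.080 ± 0.18, with an interval of -0.34 to 0.50 (adjusted p = 0.921 with limma). Col1a2 read 115023 and 81362 against 105106 and 76821. Its array 1 was the higher in both groups and the groups overlapped (log2 -0.11, interval -0.70 to 0.49).

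Col3a1, the chain of collagen III, which forms thin fibrils beside collagen I, read 45031 and 52323 in control muscle, against 46204 and 42637 in transgenic muscle (log2 -0.13, interval -0.57 to 0.31). Collagen V sets the diameter of collagen I fibrils. Its chains Col5a1, Col5a2 and Col5a3 had differences of -0.017, 0.11 and 0.10, and their intervals together spanned -0.51 to 0.60. In the brightest probe set of each of the 6 chains of collagens I, III and V, a 2-fold change lies outside the interval. A second probe set of Col5a2 was less precise, at -0.21 ± 0.39.

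Other fibrillar chains are typical of cartilage. Col11a2, a chain of collagen XI, read 607 and 569 in control muscle, against 877 and 925 in transgenic muscle. The groups did not overlap and the difference was 0.62 ± 0.29, which was not called (adjusted p = 0.524 with limma). Col11a1 had a difference of 0.21, with MCK-PPARb arrays at 1124 and 581 on either side of the non-transgenic ones, and Col2a1 one of -0.28. Of 8 markers of cartilage cells listed, 7 were on the array and 1 was above the filter level. Their summed signal was 1946 and 1433 in control muscle, against 2144 and 1361 in transgenic muscle, and its part in the signal of these chains was not tested.

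Among the collagens of basement membranes, Col4a1 had the smallest p. Col4a1 and Col4a2 encode the 2 chains of the collagen IV trimer found in most basement membranes, and lie head to head on opposite strands, their RefSeq starts (GRCm38.p6) overlapping by 22 bases. Col4a1 read 17808 and 16305 in control muscle, against 12982 and 12976 in transgenic muscle, so that both transgenic arrays lay below both controls. The difference was -0.39 ± 0.17, 0.762-fold, with an unadjusted p of 0.0559 and an adjusted p of 0.485 in limma. Its interval, -0.80 to 0.013, includes 0. The other probe set of Col4a1 had a difference of -0.28. Col4a2 read 7167 and 8250 against 7741 and 7020, with overlapping groups and a difference of -0.061 (interval -0.50 to 0.38). Whether the 2 chains differ in their response was not tested.

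Of the less common collagen IV chains, Col4a5 was above the filter level, at 316 and 622 against 426 and 552 (log2 0.13, interval -0.91 to 1.17), and Col4a3, Col4a4 and Col4a6 were below it. Col15a1 and Col18a1, collagens with heparan or chondroitin sulfate chains at the outer face of basement membranes, had differences of -0.25 and 0.14. Col7a1, the collagen of anchoring fibrils, read 354 and 443 against 587 and 602. The groups did not overlap, and its difference of 0.58 ± 0.35 was not called (adjusted p = 0.618 with limma).

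The chains of collagen VI, which tethers the basement membrane to the fibrils around it and whose mutations cause congenital muscle disease, were among the most precisely measured members. Col6a1 read 12750 and 12238 in control muscle, against 13202 and 11584 in transgenic muscle (log2 -0.014, interval -0.43 to 0.40). Col6a2 read 11745 and 12004 against 12516 and 12244 (log2 0.060, interval -0.34 to 0.46). The groups overlapped for Col6a1, and for Col6a2 the transgenic arrays lay just above the controls. Col6a3 read 7659 and 8158 against 6862 and 6194, with both MCK-PPARb arrays below both controls. Its difference of -0.28 ± 0.18 was not called (adjusted p = 0.651 with limma).

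Of 15 other collagens, 5 were above the filter level, with differences of -0.13 to 0.73. Col12a1 encodes a collagen that binds to the surface of collagen I fibrils, abundant in tendon and fascia. It read 479 and 493 in control muscle, against 662 and 980 in transgenic muscle, near the filter level. Its groups did not overlap, and the difference was 0.73 ± 0.34 (interval -0.074 to 1.53, adjusted p = 0.516 with limma). It was 0.45 without transgenic array 2 and 1.01 without transgenic array 1. Col14a1, its relative on fibril surfaces, had a difference of -0.13 and Col22a1, found where muscle meets tendon, 0.24. Markers of tendon cells were present, 7 of 10 listed above the filter level, with a median difference of -0.27. Kera (0.19) and Chad (0.48) had positive differences and the others negative ones, down to -1.20 for Cilp2. The summed signal of the markers was 24060 and 27806 in control muscle, against 20459 and 20057 in transgenic muscle. Within that sum, Thbs4 alone read 9455 and 9630 against 5128 and 4525. The part of these markers in the signal of the collagens was not tested.

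Laminins are trimers of an alpha, a beta and a gamma chain, and the form with the alpha 2 chain anchors the adult muscle fibre through dystroglycan and integrin. The groups overlapped for all 6 laminin genes above the filter level. Lama2, the alpha 2 chain, read 1472 and 1755 in control muscle, against 1769 and 1283 in transgenic muscle (log2 -0.094, interval -0.72 to 0.53). Lamc1, the common gamma chain, was the most even, at 6641 and 6362 against 6978 and 5959 (log2 -0.011, interval -0.45 to 0.43). Lamb1 and Lamb2, beta chains of which the latter is concentrated at the nerve-muscle synapse, had differences of -0.13 and 0.31, and the endothelial chain Lama4 one of -0.070. The value of Lamb2 was 0.036 without transgenic array 2, 0.081 without control array 1, 0.55 without control array 2 and 0.59 without transgenic array 1.

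Among the laminins above the filter level, Lama5 had the smallest p and the widest gap between replicates of a group. It read 912 and 1992 in control muscle, against 1096 and 925 in transgenic muscle. The higher control array stands apart from the other 3, and the difference of -0.42 became 0.14 without it, control array 2. Nid1 and Nid2, the nidogens that connect laminin with collagen IV, had differences of -0.12 and 0.10. For Nid1 the controls alone, at 4026 and 6515, spanned a wider range than the transgenic arrays at 5339 and 4171.

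Fn1, Sparc, Postn and Tnc encode glycoproteins that bind cells and collagens and are produced in repair. Fn1, fibronectin, read 5392 and 6080 in control muscle, against 8850 and 6930 in transgenic muscle. Both transgenic arrays were higher, and the difference of 0.45 ± 0.20, 1.37-fold, was not called (unadjusted p = 0.0606, adjusted p = 0.499 with limma). It was 0.28 without transgenic array 1. Tnc, tenascin C, which is typical of tendon and of healing muscle, read 694 and 733 against 854 and 859. Its replicates were close and its groups apart, and the difference of 0.26 ± 0.29 was not called.

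Sparc, a collagen-binding protein of high signal, read 91229 and 75823 in control muscle, against 74316 and 69379 in transgenic muscle (log2 -0.21, interval -0.67 to 0.25). The MCK-PPARb arrays lay below both controls, by little in the case of control array 2. A second probe set had a difference of -0.24. Postn, periostin, read 1041 and 1919 against 1726 and 1518, and both transgenic values lay between the controls.

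The small leucine-rich proteoglycans decorin, lumican, biglycan and fibromodulin coat collagen fibrils and steer their assembly. The groups overlapped for all 4. Dcn read 68565 and 49902 in control muscle, against 61096 and 44725 in transgenic muscle (log2 -0.16, interval -0.73 to 0.41). As for Col1a2, array 1 was the higher in each group. Bgn and Fmod had differences of -0.063 and 0.0090, with intervals inside -0.52 and 0.47. Lum read 1383 and 2700 against 1358 and 1401, so that 1 control array stands apart from the other 3. Its difference of -0.49 was -0.0037 without that array, control array 2, and -0.97 without control array 1.

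Elastin gives connective tissue its recoil, and lysyl oxidase, the product of Lox, crosslinks elastin and collagen. Eln read 3139 and 2664 in control muscle, against 2700 and 2756 in transgenic muscle (log2 -0.084, interval -0.57 to 0.40). Lox read 1377 and 1753 against 2546 and 1361. The MCK-PPARb arrays lay on both sides of the controls, and the difference of 0.26 was -0.19 without MCK-PPARb array 1.

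**Figure D3:**
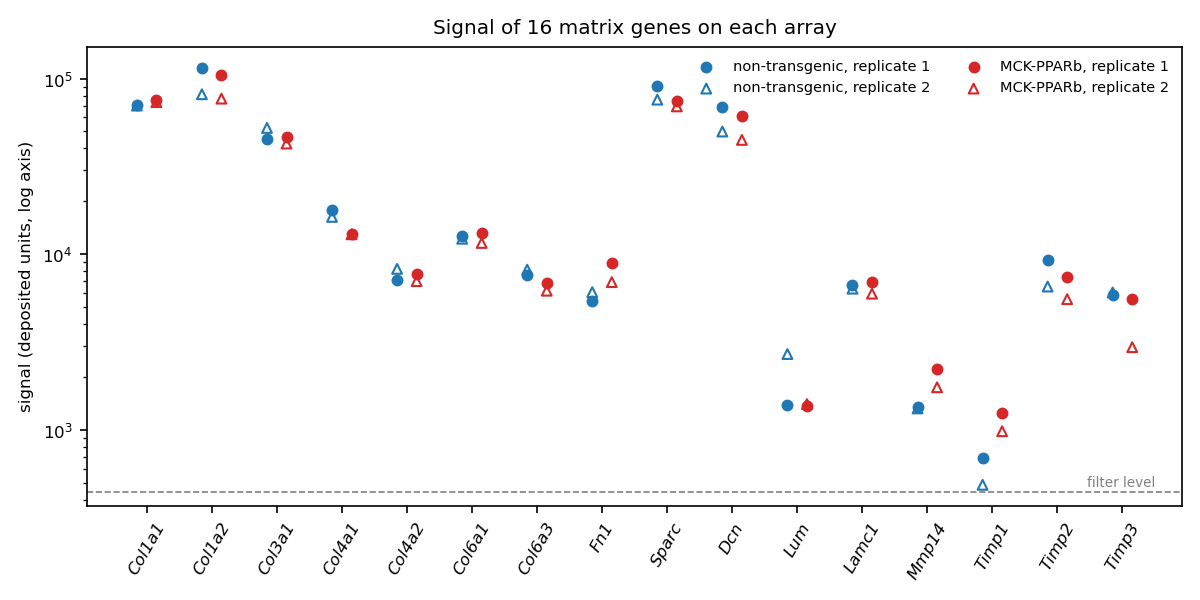
Signal of 16 matrix genes on each of the 4 arrays, on a log axis, with non-transgenic arrays in blue and MCK-PPARb arrays in red; signals of different genes are not comparable with each other. Col1a1 at 70123 to 75732 and Lamc1 at 5959 to 6978 show 4 nearly level points, while both red points of Timp1, 1249 and 982, lie above both blue ones, 694 and 486.

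Of 18 MMP genes, 3 were above the filter level. Mmp14, the membrane-bound collagenase that also activates the product of Mmp2, read 1346 and 1324 in control muscle, against 2217 and 1747 in transgenic muscle. Both transgenic arrays were higher. The difference was 0.56 ± 0.24, 1.47-fold, which was not called (unadjusted p = 0.0527, adjusted p = 0.480 with limma). The other of its 2 probe sets lay below the filter level, and the mean of both gave a difference of 0.039. Mmp2, gelatinase A, had overlapping groups at 3229 and 4146 against 3780 and 2744 (log2 -0.18, interval -0.76 to 0.39). Mmp23 had a difference of 0.18.

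The 4 TIMP genes had differences of both signs. Timp1, the inhibitor most readily induced by injury and inflammation, read 694 and 486 in control muscle, against 1249 and 982 in transgenic muscle. Both transgenic arrays lay above both controls, and the difference of 0.93 ± 0.33, 1.91-fold, had an unadjusted p of 0.0229 and an adjusted p of 0.348 in limma. Leaving out 1 array at a time gave values from 0.67, without control array 2, to 1.19, without control array 1. It is the largest difference among the members above the filter level, and 744 of the 6841 genes had an unadjusted p under 0.05.

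Timp3, which stays bound to the matrix, read 5872 and 6055 in control muscle, against 5540 and 2953 in transgenic muscle. Transgenic array 2 stands apart from the other 3 arrays. The difference of -0.56 ± 0.30 was not called (adjusted p = 0.572 with limma) and was -0.11 without it and -1.01 without transgenic array 1. Its 3 other probe sets had smaller differences, of -0.24 to -0.14. Timp2 read 9259 and 6540 against 7389 and 5543. Of its 6 probe sets, the 5 above the filter level gave differences from -0.39 to 0.23. The difference of the brightest, -0.28, was -0.031 without control array 1, -0.075 without transgenic array 2, -0.53 without control array 2 and -0.49 without transgenic array 1. Timp4, a TIMP of heart and muscle, had a difference of -0.25. Whether Timp1 differs from the other TIMPs in its response was not tested.

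Since Timp1 had the smallest p of all members, the 250 bases before its RefSeq start are shown (GRCm38.p6, chrX:20869916-20870165, plus strand, in lower case because no searched motif was found there).
Timp1: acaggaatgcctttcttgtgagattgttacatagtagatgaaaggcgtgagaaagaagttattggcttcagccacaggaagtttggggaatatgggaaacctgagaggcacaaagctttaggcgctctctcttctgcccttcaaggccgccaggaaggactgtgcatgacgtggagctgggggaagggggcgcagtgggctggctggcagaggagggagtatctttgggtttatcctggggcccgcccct

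The same window was searched on both strands for 4 motifs in the 55 members that have an entry in the promoter table. The response element that PPARs bind, 2 copies of AGGTCA in 1 direction with 1 base between them, was in 0 of the 55 and in 0.037% of all 27025 promoters. Its half-site AGGTCA, which every match of the full element contains, was in 9 of the 55 (16.4%), against 13.8% of all. The letters of the AP-1 site, TGANTCA, were in 8 (14.5%, against 6.87%) and those of the TATA box, TATAAA, in 13 (23.6%, against 13.0%). A match describes letters and not a bound site, and no match says only that the letters are not in this window.

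Of the 8 members with the AP-1 letters, 7 are MMPs, out of 13 MMPs with an entry, and the same 7 hold the TATA letters. All 7 lie on chromosome 9, where the genes of the secreted collagenases and stromelysins are clustered, and all 7 were below the filter level. Mmp8 and Mmp12, also on chromosome 9, and Mmp11 and Mmp24 hold neither motif and were below the level too. Mmp14 and Mmp23, which were above it, hold neither. The 110 bases before the start of 5 of them and of Mmp14 are set out to show this, with the letters of both motifs in capitals (all on the plus strand of GRCm38.p6). They are at chr9:7445712-7445821 (Mmp3), chr9:7502232-7502341 (Mmp10), chr9:7272404-7272513 (Mmp13), chr9:7464031-7464140 (Mmp1a), chr9:7691980-7692089 (Mmp7) and chr14:54431488-54431597 (Mmp14).
Mmp3: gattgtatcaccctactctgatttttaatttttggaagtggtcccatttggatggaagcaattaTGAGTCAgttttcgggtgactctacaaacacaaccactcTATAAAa
Mmp10: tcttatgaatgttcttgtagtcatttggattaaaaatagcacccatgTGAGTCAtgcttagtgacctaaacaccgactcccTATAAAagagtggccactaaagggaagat
Mmp13: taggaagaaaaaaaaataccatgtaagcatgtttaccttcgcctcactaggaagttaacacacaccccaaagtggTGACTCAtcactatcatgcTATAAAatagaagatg
Mmp1a: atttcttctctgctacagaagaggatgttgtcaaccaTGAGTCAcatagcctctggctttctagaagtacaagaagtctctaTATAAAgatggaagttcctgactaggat
Mmp7: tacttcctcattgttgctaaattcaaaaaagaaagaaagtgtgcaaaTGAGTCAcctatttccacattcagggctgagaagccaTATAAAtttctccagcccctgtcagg
Mmp14: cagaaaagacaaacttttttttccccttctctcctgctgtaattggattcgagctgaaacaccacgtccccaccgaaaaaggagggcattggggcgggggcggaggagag

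The 32 members below the filter level comprised 15 MMPs, 10 of the other collagens, 4 laminins and 3 collagen IV chains. Their signals ran from 3.70 to 701, and differences at such signals are unreliable. In a fit without a filter, 3 of them had an unadjusted p under 0.05, and 4.03% of all genes below the level did. The smallest adjusted p was 0.546. The groups did not overlap for 12 of the 32, where 32.2% of all genes below the level did not. The 3 were chosen for mention after their values were seen. Lama1, an embryonic laminin chain, read 163 and 147 in control muscle, against 25.3 and 20.3 in transgenic muscle. Mmp20, an enzyme of tooth enamel, read 110 and 142 against 22.4 and 9.70. Col9a1, a cartilage collagen chain, read 248 and 312 against 682 and 551, so that it crossed the level in MCK-PPARb muscle. Mmp9, gelatinase B of leukocytes, read 103 and 452 against 701 and 457, and Mmp3, stromelysin 1, read 145 and 154 against 394 and 192. The transgenic arrays were higher for both, for Mmp9 by only a few units above control array 2.

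For 23 members, more than 1 probe set lay above the filter level, 57 in all. In limma 0 of the 57 were called, and 0 showed an unadjusted p under 0.05. The sign was the same in all probe sets of 14 genes and mixed in 9. Among the abundant genes, the probe sets of Col1a1 gave 0.080 and -0.077 and those of Col1a2 -0.11 and 0.068. They lay closest together for Lamc1, Col18a1 and Lamb1. Yet the second probe set of Lamc1 read 683 and 661 in control muscle, against 1137 and 385 in transgenic muscle. That of Col18a1 read 535 and 754 against 941 and 527. In both, the transgenic arrays lay on either side of the controls. The widest ranges were those of Col22a1, -0.39 to 0.24, and Timp2. Col5a1 had -0.017 in its brightest probe set and -0.37 and -0.43 in the others, and Eln -0.084 and -0.62.

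**Figure D4:**
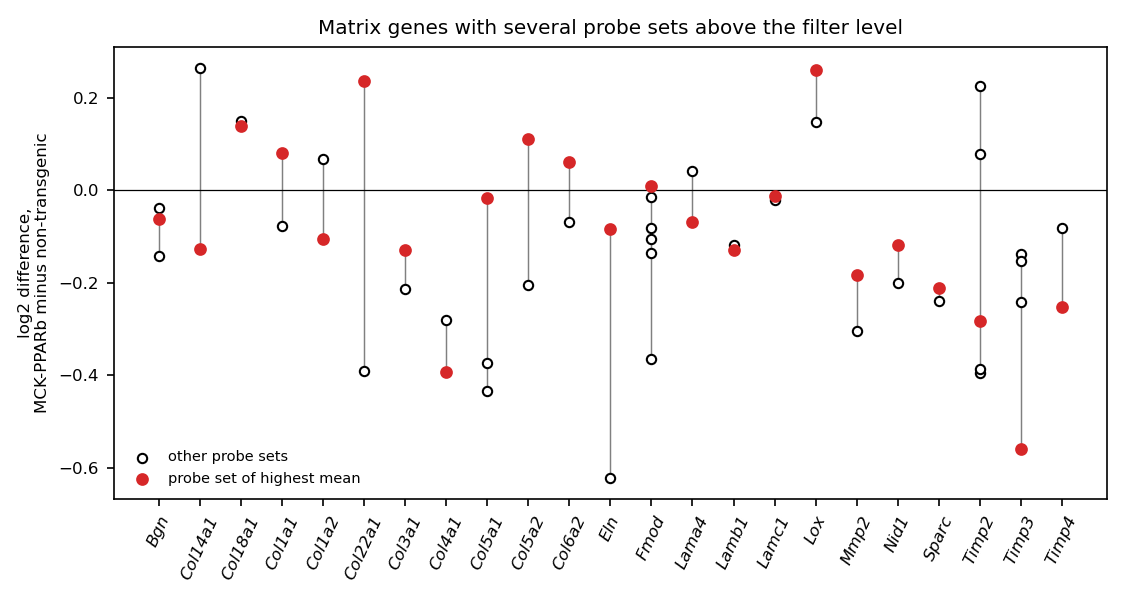
Log2 difference, MCK-PPARb minus non-transgenic, in each probe set above the filter level of the 23 matrix genes with several, the probe set of highest mean in red. Col4a1, Sparc and Timp3 lie below 0 in every probe set shown, while Col1a1, Col1a2 and Timp2 lie on both sides.

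Further genes of matrix production, breakdown and sensing were taken from 6 lists. Of 181 such genes, 155 were on the array and 117 above the filter level. None of the 117 was called, and 7 showed an unadjusted p under 0.05 with limma, 5 with a positive and 2 with a negative difference, where 0.731% of all genes were called and 10.9% had such an unadjusted p. Their median difference was -0.0087. The smallest p of these genes was that of Thbs4, thrombospondin 4, a protein of tendon and of the muscle-tendon junction. It read 9455 and 9630 in control muscle, against 5128 and 4525 in transgenic muscle. The transgenic arrays lay close together and well below the controls, and the difference of -0.99 ± 0.18 missed the threshold (adjusted p = 0.0874 with limma). Sparcl1, a relative of Sparc, read 7908 and 9986 against 4948 and 4790 (log2 -0.87 ± 0.20, adjusted p = 0.144 with limma). Its groups did not overlap either. With the replicate number as a block both passed. Thbs4 and Chad are also on the list of tendon cell markers. Thbs4 and Sparcl1 came from the list of other glycoproteins and elastic fibre proteins. Its next gene by p was Ltbp3, which binds latent TGF-beta (0.36, not called).

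Among 18 measured genes of collagen processing and crosslinking, the smallest p were those of Ppib, a prolyl isomerase of the endoplasmic reticulum (0.54), the lysyl hydroxylase gene Plod2 (0.81) and P4ha2, a subunit of prolyl 4-hydroxylase (-0.65). Of 8 other proteoglycans, they were those of Chad (0.48), Agrn (-0.36) and Prg4 (-0.24). Of 16 other proteases and inhibitors, they were those of Adamts1, which cleaves proteoglycans (0.58), and the cathepsin genes Ctsb (-0.43) and Ctsk (-0.71). None of these genes was called, and the members of each list had differences of both signs.

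Of 25 matrix receptors, the smallest p were those of Itgb4, an integrin subunit of epithelia and Schwann cells that read 444 and 701 against 1009 and 1303 (1.04), Sspn, a member of the dystrophin complex (0.40), and Itga6, a laminin-binding integrin subunit (-0.47). Markers of Schwann cells, of which 4 of 8 listed were above the filter level, had a median difference of 0.65 and a summed signal of 18719 and 20256 in control muscle, against 31242 and 34849 in transgenic muscle. Their part in the signal of Itgb4 was not tested. Of 21 genes of TGF-beta family signalling, the pathway best known for raising collagen synthesis, they were those of Acvr2b, a receptor of myostatin (0.81), Smad2 (0.71) and Smad3 (-0.81), which carry the signal to the nucleus. None was called.

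Markers of fibroblasts, the main source of fibrillar collagen, were all above the filter level, 12 of 12. They had a median difference of -0.17, none was called, and Lsp1, at -0.95, was the 1 with an unadjusted p under 0.05 in limma. Their summed signal was 55147 and 74989 in control muscle, against 60012 and 50417 in transgenic muscle, so that the groups overlapped. In the sum of these markers, Gsn alone made 17764 and 29875 against 21680 and 14400. Those of endothelial cells, which make collagen IV and laminins, were above the level in 9 of 9 cases, with a median of -0.23 and a summed signal of 14885 and 17311 against 14259 and 14649. Their part in the values of Col4a1 was not tested. Those of macrophages had a median of 0.034, and those of pericytes and smooth muscle 0.059. Markers of leukocytes other than macrophages were all below the filter level, and of those of satellite cells 1 of 7 lay above it. Of 4 measured genes listed as adipocyte markers, Adipoq (1.03) and Retn (1.02) had positive differences and Car3 (-1.46) and Fabp4 (-0.23) negative ones. None was called, and the groups overlapped for Fabp4 only. Adipoq read 1151 and 1648 in control muscle, against 2567 and 3076 in transgenic muscle. Car3 read 93016 and 97784 against 46214 and 25831. Whether Car3 and Fabp4 report fat cells in this muscle was not tested.

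The limits of these comparisons are those of 2 arrays a group. With so few arrays, the smallest p that exact permutation allows for 1 gene is 0.333, and the tests lean on the variance shared across genes in limma. Of 39 members followed through 16 alternative analyses, 23 took the other sign in at least 1, and the largest of these had a difference of 0.42 in size.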

How the data were processed

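Gastrocnemius RNA of 4 mice was measured on 1 array each. The authors deposited an intensity for every probe set, on a linear scale; the submitters' processing notes name the tools MAS5 and GCOS, with settings not given in the sources used here. Trimmed means of the arrays, 1470 to 1480, show a common scaling. Signals were converted to log2 without adding a pseudocount. Of 22690 probe sets, 64 controls were left out. Symbols came from the platform annotation, updated through the gene number with the table of assembly GRCm38.p6. Probe sets of several symbols named none. Probe sets with a mean log2 signal above the median, 444 units, were kept (11313 probe sets, 6841 genes). The comparison used limma 3.58.1 (R 4.3.3) (lmFit, eBayes with an intensity trend, moderated test in both directions, with p-values adjusted by Benjamini-Hochberg over all 11313), and a gene is called at an adjusted p under 0.05. The fit and its intervals were tested on simulated data with independent noise on each array, so variation shared between arrays was not covered.

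All members were counted. The rule for named genes took the 15 members of smallest p, the smallest of each role, a list of members always reported, and up to 3 genes of smallest p in each further list. Members outside it, such as Mmp23, Col5a3 and Col11a1, are given as values of their role. The members and lists were chosen with earlier results of these data known. Promoter sequences are those of RefSeq, with the 50 bases after each start left out. Most of the alternatives are named in the closing section. The others were a pseudocount of 33.9 units, signals raised to the filter level and a fit without the intensity trend. The last of them were the robust form of eBayes and leaving out probe sets ending in _s_at or _x_at.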

Additional observations from a re-analysis of the deposited data

How the results depend on the processing

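The count of called members was 0 in each of the 16 alternatives, with a smallest adjusted p of 0.123 in limma (Timp1, replicate block). An unadjusted p under 0.05 in limma was shown by 0 to 6 members. The 0 were of 30 tested with the filter at the 75th percentile, and the 6 were of 80 without a filter. The replicate numbers are not known to pair mice: deviations of same-numbered arrays correlated at 0.276 over probe sets. With the replicate block, 2 of the further genes were called, Thbs4 and Sparcl1. At an adjusted p under 0.1, 1 was (Thbs4). With 1 array left out, a call among the further genes appeared only for Ccn1, without control array 2. Ccn1 read 299.5 and 1508 in control muscle, against 1506 and 1296 in transgenic muscle, so that its groups overlapped. That fit rests on the control array at 299.5, below the filter level. A group left with 1 array was assumed to vary like the other. The members' median stayed within -0.12 to 0.091. Median centring moved the median of all genes from 0.011 to -0.095 and that of the members to -0.12.

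Of 613 single values, 41 took the other sign and 0 crossed the threshold. With quantile normalization these were Col1a2 (0.046), Col6a1 (0.054) and Lamc1 (0.011). With median centring they were Col1a1 (-0.026), Col6a2 (-0.046), Fmod (-0.097) and Nid2 (-0.0017). Averaging all probe sets per gene, they were Col5a2 (-0.047), Col6a2 (-0.0046) and Fmod (-0.12). Leaving out 1 array gave ranges of -0.14 to 0.016 for Bgn, -0.0092 to 0.29 for Col18a1, -0.36 to 0.14 for Col1a2, -0.16 to 0.041 for Col4a2, -0.15 to 0.11 for Col5a1, -0.0062 to 0.23 for Col5a2, -0.11 to 0.080 for Col6a1, -0.39 to 0.067 for Dcn, -0.20 to 0.034 for Eln and -0.13 to 0.15 for Fmod. The ranges were -0.33 to 0.14 for Lama2, -0.29 to 0.16 for Lama4, -0.98 to 0.14 for Lama5, -0.27 to 0.013 for Lamb1, -0.13 to 0.10 for Lamc1, -0.19 to 0.71 for Lox, -0.42 to 0.047 for Mmp2, -0.47 to 0.23 for Nid1, -0.085 to 0.29 for Nid2, -0.25 to 0.64 for Postn and -0.56 to 0.054 for Timp4. Other values moved by over 1.5 times without a change of sign, and those given here are examples. Averaging probe sets moved Mmp14 to 0.039, Timp3 to -0.27, Timp2 to -0.17, Timp4 to -0.17 and Lox to 0.63. It moved Col5a1 to -0.27, Eln to -0.35, Col1a1 to 0.0012 and Col1a2 to -0.019. Median centring moved Lamb2 to 0.21, Lox to 0.16 and Tnc to 0.16. It moved Bgn to -0.17, Col3a1 to -0.235, Col18a1 to 0.033 and Col5a2 to 0.0051. Leaving out 1 array also moved Col3a1 (-0.24 to -0.021), Col15a1 (-0.42 to -0.083) and Sparc (-0.35 to -0.079) by as much. The cause was not tested. Depth has no meaning here: the number of arrays and signals near the filter level limit the precision.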
